A study of Mus musculus with 5 samples.

Results

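Malat1, Neat1 and Meg3 are 3 long noncoding RNAs of the cell nucleus, and they were taken by symbol from the deposited gene table, where they make up 3 of 11194 genes. The table holds read counts from 5 anti-Staufen1 immunoprecipitates (RIP-seq) of quiescent muscle stem cells from mice, cells that sit beside the fibres of skeletal muscle and repair them. 3 libraries came from Stau+/+ mice and are called wild type below, and 2 came from mice labelled Stau-/- and are called knockout. All 5 libraries received the same antibody, no input RNA was used here, and strain, age, the nature of the Staufen allele and any pooling of animals are not given in the labels. The antibody was added to the cleared supernatant of a detergent lysate, and the recovered RNA was copied with oligo(dT) priming. The comparison of genotypes asks which RNAs were recovered with Staufen1, a protein that binds double-stranded RNA, with the knockout as the background.

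Malat1 is an abundant RNA that collects in nuclear speckles, the compartments that store splicing factors. Neat1 is the scaffold on which paraspeckles assemble, and it exists as a short polyadenylated form and a long form whose end is not polyadenylated. Meg3 is made from the maternal chromosome of the imprinted Dlk1-Dio3 domain and is the first of a row of noncoding RNAs there. The end of Malat1 is cut by RNase P and has no poly(A) tail, so that an oligo(dT) primer can start on it at A-rich stretches within the RNA.

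Malat1 and Neat1 lie next to each other on chromosome 19 of mm10. Malat1 (ENSMUSG00000092341) was counted over 1 exon, 5795690 to 5802672 on the minus strand, and Neat1 (ENSMUSG00000092274) over 1 exon of 20771 bases, 5824708 to 5845478 on the minus strand. The Neat1 exon spans both forms, so the counts cannot separate them. Inside the Malat1 exon RefSeq places Mascrna (5795924 to 5795981), the small RNA released when the end of Malat1 is cut. Meg3 (ENSMUSG00000021268) was counted over 8 exons on chromosome 12, 109541001 to 109571726 on the plus strand, with a summed length of 18089 bases. Its exon 8, 13087 bases wide, overlaps the RefSeq gene Rtl1 (109564900 to 109604418), which runs on the other strand, and the strand setting of the counting is not given in the sources used here. Reads of Meg3 and Rtl1 over that stretch therefore cannot be told apart.

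2 microRNA genes lie inside counted exons of Meg3, so that unprocessed precursor RNA of both would add to its count. Mir1906-1 lies in exon 3 and Mir770 in exon 8. Their mature forms are printed from RefSeq (GRCm38.p6), with the seed, bases 2 to 8, in capitals. No seed is shared among them.
mmu-miR-1906: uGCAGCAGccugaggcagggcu
mmu-miR-770-5p: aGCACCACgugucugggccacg
mmu-miR-770-3p: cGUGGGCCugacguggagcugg

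The last 40 bases of Meg3 exon 3 and the sequence after it are shown because of an A run there, of the kind an oligo(dT) primer can anneal to (chr12:109545280-109545359, plus strand, GRCm38.p6; the run is in capitals). The run has 20 A and begins at 109545320, directly after the annotated end of exon 3 at 109545319. A run of at least 20 A or T was present in 0.627% of 32851 RefSeq promoter windows of 300 bases. How many reads began there cannot be read from counts per gene.
Meg3 exon 3 end: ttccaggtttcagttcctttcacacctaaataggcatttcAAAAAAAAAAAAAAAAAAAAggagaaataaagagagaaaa

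The promoters of Malat1 and Meg3 are shown because both RNAs had a higher mean in knockout, described below. They run from 250 bases before to 50 bases after the RefSeq start, and no Neat1 window was matched. Meg3 has a second RefSeq start, at 109545398, whose window (109545148 to 109545447) spans the A run above and is not printed again. Capitals mark matches on either strand to the cyclic AMP response element TGACGTCA, its core TGACG, the TATA box TATAAA, the CCAAT box, the GC box GGGCGG and the E box CAGCTG that MyoD binds; the first element contains the second.
Malat1 (chr19:5802623-5802922, minus strand, GRCm38.p6): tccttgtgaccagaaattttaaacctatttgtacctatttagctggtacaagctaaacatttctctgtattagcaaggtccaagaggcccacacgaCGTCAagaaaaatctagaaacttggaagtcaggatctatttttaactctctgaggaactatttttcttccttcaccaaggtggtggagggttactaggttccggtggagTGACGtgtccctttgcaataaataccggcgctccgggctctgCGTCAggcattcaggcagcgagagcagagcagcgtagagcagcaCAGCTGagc
Meg3 (chr12:109540746-109541045, plus strand, GRCm38.p6): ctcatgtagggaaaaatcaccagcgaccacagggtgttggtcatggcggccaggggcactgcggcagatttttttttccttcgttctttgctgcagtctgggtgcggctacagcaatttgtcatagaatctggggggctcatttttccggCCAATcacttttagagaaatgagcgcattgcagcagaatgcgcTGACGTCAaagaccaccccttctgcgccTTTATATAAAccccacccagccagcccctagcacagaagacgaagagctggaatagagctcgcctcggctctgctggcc
The first Meg3 window, printed here, held 1 full response element, present in 1.79% of all 32851 windows, the TATA box at 2 overlapping positions (13.6% of windows) and 1 CCAAT box (37.4%). The Malat1 window held the core at 3 positions (20.8% of windows) and 1 E box (16.3%). Neither held the GC box (35.7%), and the second Meg3 window held none of the 6 motifs. Each share counts windows with at least 1 match on either strand, whatever the number of positions. The marked motifs are letter matches and say nothing of binding.

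Before the 3 RNAs are compared, the libraries themselves set limits. Totals ran from 33846391 to 105473455 counts in wild type and were 9370244 and 3091302 in knockout 1 and 2, so that the shallowest wild type library was still deeper than either knockout library. Stau1, the targeted gene, had 104.3, 126.8 and 118.2 CPM in wild type 1 to 3 and 109.0 and 110.7 CPM in the libraries labelled knockout, which gave a wild type over knockout log2 difference of 0.08 (SE 0.19; adjusted p = 0.847 in edgeR); a count over the whole gene does not show whether part of it or its protein was lost. CPM is the count relative to the library total after scaling with edgeR's TMM factors. All directions below rest on the labels. All 15 markers of muscle stem cells fixed for the check were measured, and none was at 0 in any library. The same held for the measured markers of every other cell type listed, in a table filtered before deposit, so this check does not identify the cells. Pax7, which defines muscle stem cells, had 180.7 to 263.2 CPM. Nothing in the labels ties each library to an animal of its own, and the p-values then cover only how far these particular libraries differ, possibly for technical reasons.

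Malat1 was among the most abundant transcripts of every library. It had 10357, 18963 and 8936 CPM in wild type 1, 2 and 3 and 16073 and 24030 CPM in knockout 1 and 2. The reads behind these levels were 1070697, 623531 and 634326 in wild type and 153474 and 75537 in knockout. Wild type 2 lay above knockout 1, so the groups overlapped. It took 0.906% of all counted reads in wild type 3 (95% exact binomial interval 0.903% to 0.908%) and 2.44% in knockout 2 (2.43% to 2.46%), intervals that cover counting error only. Means were 12752 ± 5425 CPM (SD, n = 3) and 20051 ± 5627 CPM (SD, n = 2), 1.57-fold higher in knockout. The log2 fold change of wild type over knockout was -0.65 (SE 0.28, 95% interval -1.25 to -0.06). It did not pass the test over all genes (edgeR quasi-likelihood test, adjusted p = 0.206). In bulk samples fewer cells that hold an RNA and less of it per cell cannot be told apart, and here a count also mixes the amount in the lysate with the share that was precipitated.

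Neat1 was the 1 of the 3 RNAs whose groups did not overlap. It had 181.3, 368.4 and 314.9 CPM in wild type 1, 2 and 3 and 498.3 and 668.4 CPM in knockout 1 and 2. Both knockout libraries were higher than each wild type library, which held for 18.1% of all genes, while 20.4% had every wild type library above both knockout libraries. The counts behind these levels were 18739, 12115 and 22349 in wild type and 4758 and 2101 in knockout. Means were 288.2 ± 96.4 CPM (SD, n = 3) and 583.3 ± 120.3 CPM (SD, n = 2), a 2.02-fold difference, with a log2 fold change of -1.02 (SE 0.25, 95% interval -1.56 to -0.47). The adjusted p of 0.0544 in edgeR's quasi-likelihood test lay just above the threshold of 0.05. The side of that line depended on the setting. In edgeR the adjusted p of Neat1 was 0.0502 with RLE factors, 0.056 with upper-quartile factors and 0.0544 with no filter, all above it. It was 0.0492 with libraries scaled by their total counts alone, 0.0465 with mitochondrial genes also left out of those totals, and 0.0462 with at least 10 counts asked of every library. DESeq2 gave an adjusted p of 0.00367 and limma-voom 0.179.

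Meg3 had 707.6, 2069 and 1257 CPM in wild type 1, 2 and 3 and 2190 and 1980 CPM in knockout 1 and 2. Wild type 2 lay between the knockout libraries, and wild type 1 was the lowest of the 5. Counts were 73150, 68017 and 89215 in wild type and 20914 and 6224 in knockout. Means were 1344 ± 685 CPM (SD, n = 3) and 2085 ± 149 CPM (SD, n = 2), 1.55-fold higher in knockout. The log2 fold change was -0.63 (SE 0.31, 95% interval -1.29 to 0.03), and edgeR's adjusted p was 0.265. Without wild type 1 the difference for Meg3 was -0.34 on the log2 scale (adjusted p = 0.551 in edgeR).

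**Figure D1:**
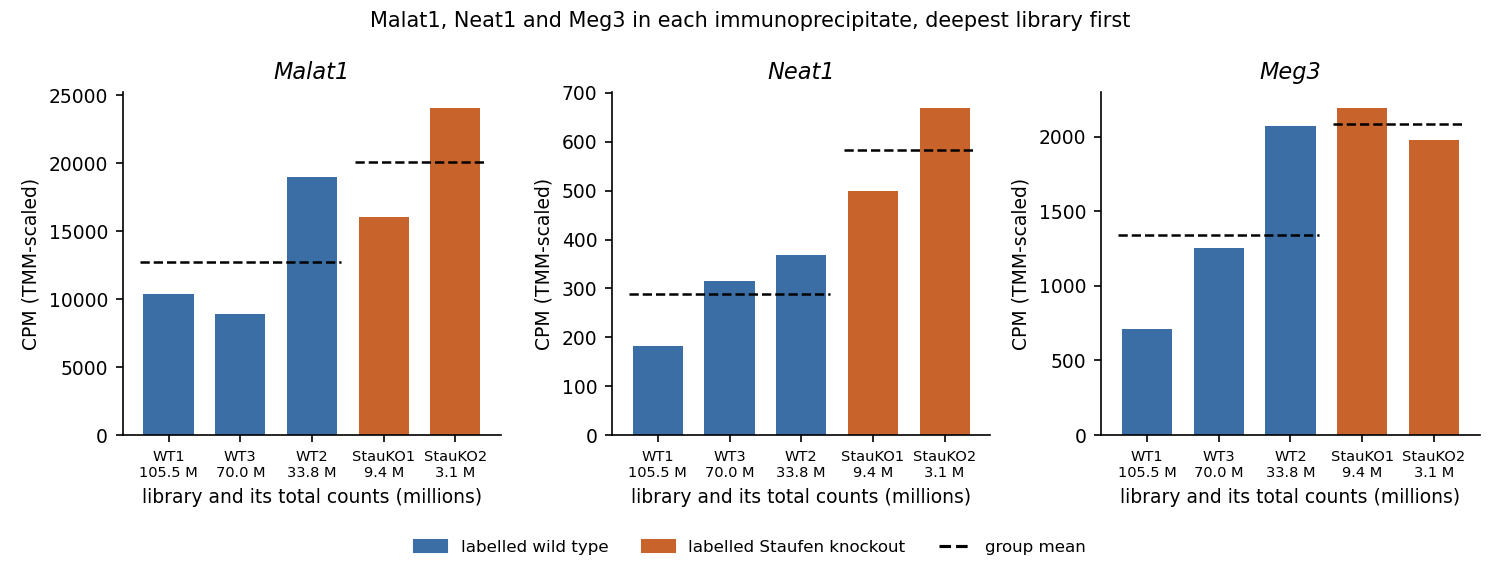
TMM-scaled CPM of Malat1, Neat1 and Meg3 in each of the 5 libraries, ordered from the deepest to the shallowest, with bars coloured by genotype label and dashed lines at the group means. The groups overlap for Malat1 and Meg3 through wild type 2, and do not overlap for Neat1.

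None of the 3 RNAs was called by edgeR at an adjusted p under 0.05, where 2.05% of all 11194 genes were called (1.05% with the higher level in wild type, 1.00% with the higher level in knockout). 2 of the 3, Malat1 and Neat1, had an unadjusted p under 0.05 with the higher level in knockout, against 9.99% of all genes. At an unadjusted p under 0.05 10.4% of all genes were higher in wild type, and 20.4% passed in either direction. DESeq2 called 1 of the 3, Neat1, and limma-voom called 0. DESeq2 called 8.37% of the 10759 genes it gave an adjusted p, 4.03% with the higher level in wild type and 4.33% with the higher level in knockout, and limma-voom called 0.197% of all genes. All 3 had their highest wild type level in wild type 2, as did 34.9% of all genes. Without wild type 2 each of the 3 was called by edgeR, at log2 fold changes of -1.05 for Malat1 (adjusted p = 0.0223), -1.23 for Neat1 (adjusted p = 0.0294) and -1.08 for Meg3 (adjusted p = 0.0363). Of all 11194 genes 348 were called in that setting. Wild type 2 was the highest wild type library for all 3, so leaving it out had to lower each wild type mean. Without knockout 2 the log2 fold change of Malat1 was -0.33 (adjusted p = 0.642, edgeR).

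The spread among the wild type libraries was wide for all 3. The highest wild type level was 2.12 times the lowest for Malat1, 2.03 times for Neat1 and 2.92 times for Meg3, while the median gene had a ratio of 1.39. 97.4% of all genes had a smaller ratio than Meg3, 90.4% a smaller one than Malat1 and 88.8% a smaller one than Neat1. In the knockout libraries the ratios were 1.5, 1.34 and 1.11 for Malat1, Neat1 and Meg3.

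Levels were then set against depth. Wild type 1 was the deepest library, followed by wild type 3, wild type 2, knockout 1 and knockout 2. Neat1 followed the exact reverse of that order, from 181.3 CPM in the deepest library to 668.4 CPM in the shallowest, a 3.69-fold range. 3.25% of all genes followed that reverse order and 3.33% followed the order itself. Meg3 kept the reverse order over the first 4 libraries and was lower in knockout 2 than in knockout 1 or wild type 2. Malat1 kept it less closely, with wild type 3 below wild type 1 and knockout 1 below wild type 2. A correlation over 5 libraries is not given.

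Depth and genotype cannot be told apart by the design. With the log2 library total added to the edgeR model, a choice made after seeing the data, the genotype term turned to 1.02 (SE 0.51, adjusted p = 0.952) for Malat1, 0.43 (SE 0.50, adjusted p = 0.956) for Neat1 and 0.74 (SE 0.64, adjusted p = 0.955) for Meg3. Their 95% intervals ran from -0.08 to 2.13, from -0.64 to 1.5 and from -0.64 to 2.12. When the counts of every library were thinned at random to the total of the shallowest, the log2 fold changes stayed near their first values, at -0.66 (adjusted p = 0.156) for Malat1, -1.09 (adjusted p = 0.0155) for Neat1 and -0.65 (adjusted p = 0.204) for Meg3 by the same test. Thinning makes the counting noise equal and leaves unchanged whatever differed between the libraries before sequencing.

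**Figure D2:**
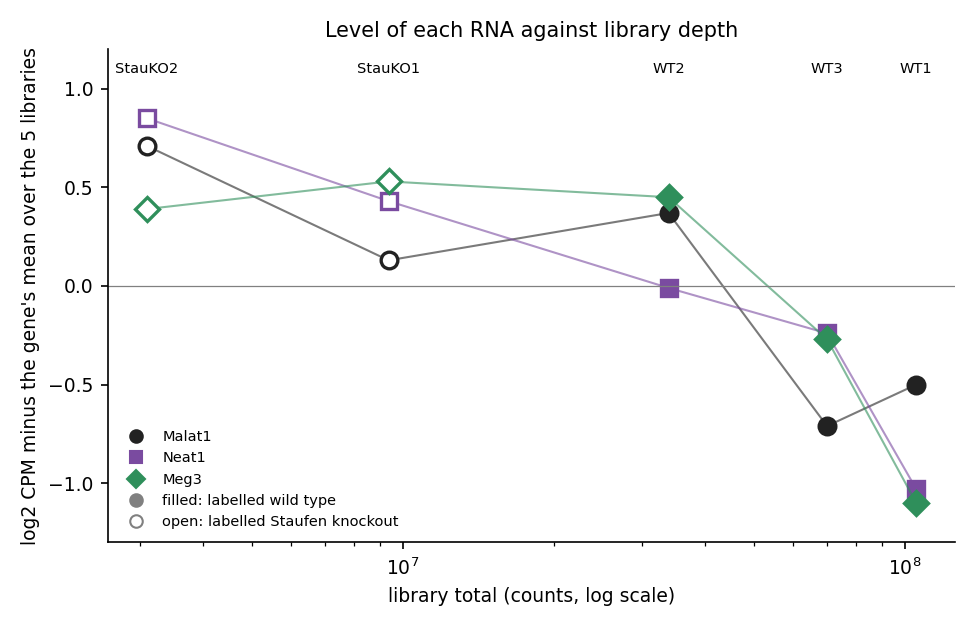
Log2 CPM of each RNA, minus its own mean over the 5 libraries, against the library total on a log axis; filled marks are wild type and open marks knockout. Neat1 is highest in the shallowest library and lowest in the deepest, and Meg3 is level over the 3 shallowest libraries.

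Several other properties of the libraries differed between the groups, though not every marker list did. The summed level of the 14 endothelial markers was 1594 to 2149 CPM in wild type and 3382 to 3700 CPM in knockout. Within wild type it was highest in wild type 1, where Neat1 and Meg3 were at their lowest. edgeR called 6 of the 14 higher in knockout and 0 lower, and no marker was at 0 in any library. Over all genes it called 1.00% higher in knockout and 1.05% higher in wild type. The 15 muscle stem cell markers summed to 7185 to 7897 CPM in wild type and to 4612 and 4613 CPM in knockout, with 4 called higher in wild type and 0 in knockout. Of 4 red blood cell genes 3 were called higher in knockout, with sums of 216 to 295 CPM in wild type and of 471 and 805 CPM in knockout. The 11 measured muscle fibre genes summed to 640 to 717 CPM in wild type, to 539 CPM in knockout 1 and to 2898 CPM in knockout 2, with 1 called higher in knockout. Markers of fibro-adipogenic progenitors, 12 in all, summed to 4327 to 6332 CPM in wild type and to 3750 and 3739 CPM in knockout, with 2 called higher in wild type and 1 in knockout. The 7 measured of 8 Schwann cell markers summed to 649 to 710 CPM in wild type and to 766 and 652 CPM in knockout, with 1, Mbp, called higher in knockout. The 11 pericyte markers summed to 1407 to 1685 CPM in wild type and to 1726 and 1860 CPM in knockout. The 10 measured macrophage markers summed to 386 to 634 CPM in wild type and to 667 and 621 CPM in knockout. Of the pericyte and macrophage markers edgeR called 0. At an unadjusted p under 0.05, 1 pericyte marker was higher in wild type and 2 in knockout, and 1 macrophage marker was higher in wild type. Over all genes 10.4% were higher in wild type and 9.99% in knockout at that unadjusted p. Genes of the mitochondrial chromosome took 0.645% to 1.04% of the counts in wild type and 1.93% and 2.12% in knockout. The part of these properties in the levels of Malat1, Neat1 and Meg3 was not tested.

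Ratios within a library need no scaling factor. There were 57.1, 51.5 and 28.4 Malat1 counts per Neat1 count in wild type 1, 2 and 3 and 32.3 and 36.0 in knockout 1 and 2. The mean log2 ratio was 5.45 ± 0.54 (SD, n = 3) and 5.09 ± 0.11 (SD, n = 2), a difference of 0.36 that did not pass an exact permutation test over libraries (p = 0.4, two-sided by absolute difference). Meg3 counts per Neat1 count were 3.90, 5.61 and 3.99 in wild type and 4.40 and 2.96 in knockout, a log2 difference of 0.30 (exact permutation p = 0.6). Meg3 counts per Malat1 count were 0.0683, 0.109 and 0.141 in wild type and 0.136 and 0.0824 in knockout, a log2 difference of -0.06 (exact permutation p = 1). The 10 splits of 3 against 2 cannot give a p below 0.1, and over the 3 ratios the Benjamini-Hochberg adjusted values were 0.9, 0.9 and 1. Each of the 3 ratios varied by 1.90 to 2.06 times over the 5 libraries, so the RNAs did not keep fixed proportions.

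Per length, the order of the 3 was the same in every library. Malat1 had 1280 to 2716 CPM per kilobase of exon in wild type and 2302 and 3441 in knockout, which ranked it between place 9 and place 37 of 11194 genes. Meg3 had 39.1 to 114.4 CPM per kilobase in wild type and 121.1 and 109.5 in knockout. Neat1 had 8.73 to 17.7 CPM per kilobase in wild type and 24.0 and 32.2 in knockout, and its place moved from 4821 in wild type 1 to 1820 in knockout 2. Its level per length is taken over the whole long form and would be higher if most reads came from the short one.

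Genes near Malat1 and Neat1 did not share one direction. Within 100 kb of either lay 9 measured genes with a symbol, of which edgeR called 0, DESeq2 1 and limma-voom 0, and 3 had an unadjusted p under 0.05, against 8.37% of genes called by DESeq2 and 20.4% at that unadjusted p; 5 had a log2 fold change below 0 and 4 above. Frmd8, whose gene body lies 4224 bases from Neat1, stood at 1.43 on the log2 scale (SE 0.46; adjusted p = 0.0998 in edgeR), opposite in sign to that of Neat1. Pola2, a subunit of DNA polymerase alpha, had -0.71 (edgeR adjusted p = 0.149). Ltbp3, which binds latent TGF-beta, had 0.38.

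In the Dlk1-Dio3 domain, the noncoding RNA Mirg was the closest to the test. Mirg, which holds a cluster of microRNAs, had 68.8, 183.0 and 122.9 CPM in wild type 1, 2 and 3 and 273.9 and 262.8 CPM in knockout 1 and 2. Its groups did not overlap, which held in that direction for 18.1% of all genes. Wild type 2 was again the highest of the wild type libraries, as for 34.9% of all genes. The log2 fold change of Mirg was -1.10 with an SE of 0.29 (adjusted p = 0.0636 in edgeR). The table has no symbol for Rian, the noncoding RNA between Meg3 and Mirg; the gene model at its coordinates (chromosome 12, 109603940 to 109661716) had 83.95, 127.2 and 100.9 CPM in wild type and 170.7 and 86.8 CPM in knockout, which gave -0.32 on the log2 scale (adjusted p = 0.533 in edgeR). Its knockout 2 level lay among those of wild type. The protein-coding genes of the domain were scarce: Dlk1, a Notch-related membrane protein made from the paternal chromosome, had 3.47 to 6.34 CPM in wild type and 9.95 and 2.23 CPM in knockout, and Rtl1, a retrotransposon-derived protein, stood at -0.64 (SE 0.47; adjusted p = 0.487 in edgeR).

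Over the 5 measured genes of the 7 in the Dlk1-Dio3 list, edgeR called 0 in either direction. Only 1 (Mirg) had an unadjusted p under 0.05, beside 9.99% of all genes with the higher level in knockout. DESeq2 called 1 higher in knockout, beside 4.33% of genes, and limma-voom 0. The median log2 fold change was -0.37, beside 0.003 over all genes. In the list of 18 measured imprinted genes outside the domain the median was 0.38. There edgeR also called 0, with 6 at an unadjusted p under 0.05, each higher in wild type, and DESeq2 called 4 higher in wild type and limma-voom 0. The shares over all genes were 10.4% higher in wild type at that unadjusted p and 4.03% called higher in wild type by DESeq2. Their smallest p-values belonged to H19 (0.86, adjusted p = 0.0702), a maternally expressed noncoding RNA, to the growth factor Igf2 (1.26, adjusted p = 0.0702) and to its receptor Igf2r (0.63, adjusted p = 0.0753), all edgeR log2 fold changes of wild type over knockout. H19 had 48.0, 54.4 and 47.8 CPM in wild type and 30.5 and 24.2 CPM in knockout, the reverse of Meg3 in sign.

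Other noncoding RNAs mostly had the sign of the 3. All 11 measured RNAs of 24 in a list of noncoding RNAs that act in the nucleus had a log2 fold change below 0, with a median of -0.56, while 49.7% of all genes lay below 0. edgeR called 0 of them, and 3 had an unadjusted p under 0.05, all higher in knockout, beside 9.99% of all genes. DESeq2 called 2 higher in knockout, beside 4.33% of genes, and limma-voom 0. The 3 were Mirg, Halr1 from the HoxA region (-1.44, edgeR adjusted p = 0.0841) and Firre, an X-linked RNA that organises chromatin (-1.12, edgeR adjusted p = 0.132). Mirg and Rian belong to this nuclear list and also to the Dlk1-Dio3 list above, so the 2 lists are not separate observations. A second list of 21, chosen as RNAs with cytoplasmic roles, holds hosts of small nucleolar RNAs and also Rn7sk and Rpph1, which act in the nucleus. Of its 12 measured RNAs 11 lay below 0, with a median of -0.64. edgeR called 0, with 7 higher in knockout and 1 in wild type at an unadjusted p under 0.05, and DESeq2 called 5 and 1 and limma-voom 0, beside 9.99% and 10.4% of all genes at that unadjusted p and 4.33% and 4.03% in DESeq2. Of these 12 RNAs 5 followed the exact reverse order of depth, as did 2 of the 11 in the nuclear list, against 3.25% of all genes. Snhg1 (-0.98, adjusted p = 0.0544) and Snhg12 (-1.0, adjusted p = 0.0607) were the closest in edgeR, beside H19. The medians of the lists were not tested against other genes.

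**Figure D3:**
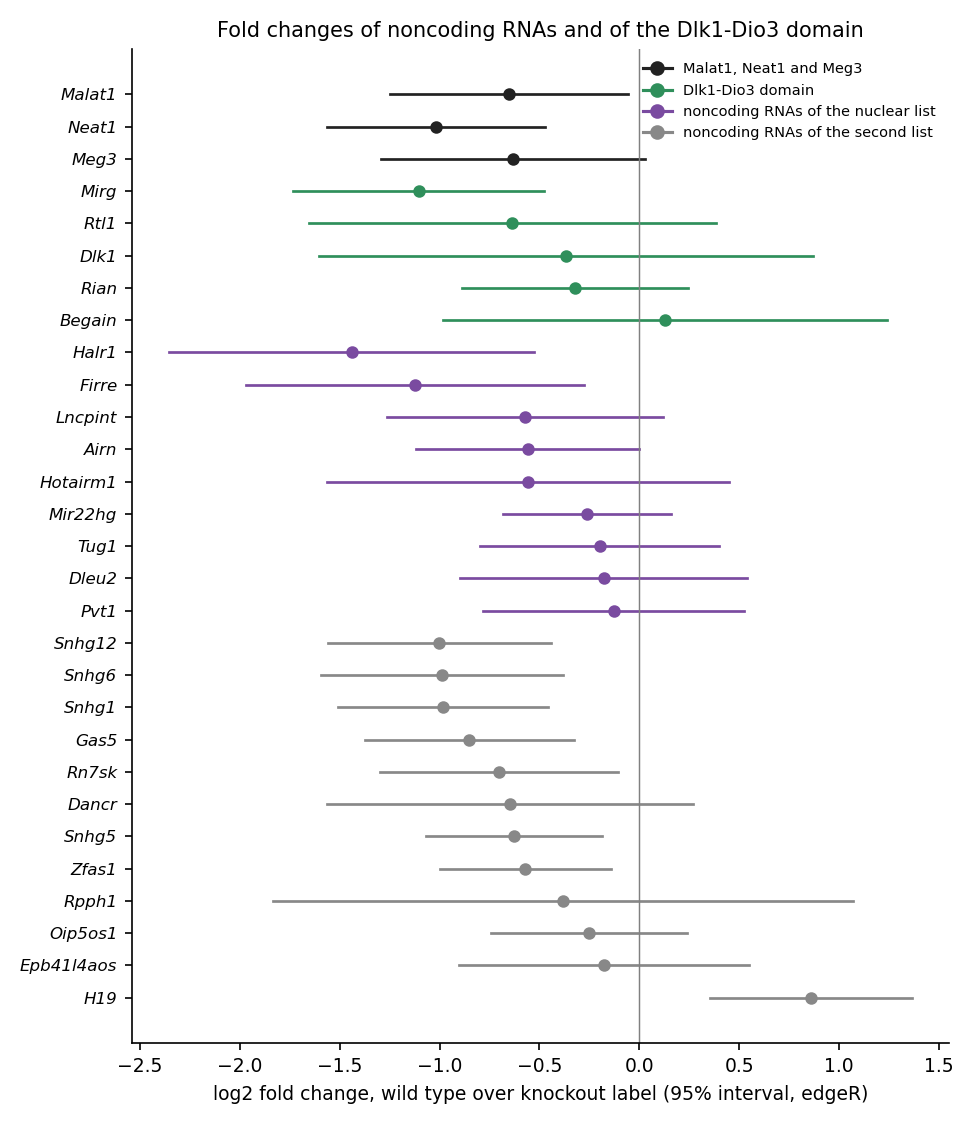
Log2 fold changes of wild type over knockout with 95% intervals from edgeR for Malat1, Neat1 and Meg3, the other measured genes of the Dlk1-Dio3 domain, and 2 lists of noncoding RNAs. Apart from Begain (0.13) and H19 (0.86), the plotted values lie below 0, and none passed the adjusted threshold.

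The messenger RNAs of proteins from both nuclear bodies had list medians nearer 0 than the noncoding RNAs. All 30 paraspeckle proteins of the list were measured, with a median of -0.02 and 18 of 30 below 0, beside 49.7% of all genes. edgeR called 0, with 4 higher in wild type and 2 in knockout at an unadjusted p under 0.05. Over all genes these shares were 10.4% and 9.99%. DESeq2 called 2 in each direction and limma-voom 0, while over all genes DESeq2 called 4.03% higher in wild type and 4.33% in knockout. Rbm12 stood at 0.91 on the log2 scale (adjusted p = 0.0666) and Hnrnph1 at -0.59 (adjusted p = 0.107), both in edgeR. Nono, a core paraspeckle protein, had 90.3, 84.5 and 116.0 CPM in wild type and 66.0 and 62.4 CPM in knockout, the reverse of Neat1 in sign (0.59, edgeR adjusted p = 0.138); it was picked after its values were seen. All 31 nuclear speckle proteins were measured, with a median of -0.15 and 22 of 31 below 0. edgeR called 0, with 4 higher in wild type and 6 in knockout at an unadjusted p under 0.05. DESeq2 called 2 higher in knockout and limma-voom 0, beside the same shares of all genes. The closest were the splicing kinase Clk4 (-0.97, adjusted p = 0.0612), Luc7l3 (-0.99, adjusted p = 0.0692) and the helicase Ddx39b (-0.64, adjusted p = 0.14). Clk4 had 99.3, 210.2 and 156.9 CPM in wild type and 281.6 and 327.3 CPM in knockout, in the reverse order of depth like Neat1.

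Genes with the most similar pattern were ranked by Pearson's r of log2 CPM over the 5 libraries, among 6342 genes with a symbol and a mean of at least 20 CPM. For Neat1 they were Rpl7a and Rpl10a, both ribosomal protein genes (each r = 0.999), then Pald1, Safb2 and Pitpnm1 (each r = 0.997). For Malat1 they were Cetn3 (0.998), Chd8 (0.997), Rad54l2, Plod2 and Tlk2 (each 0.995). For Meg3 they were Slc25a3 (0.998), Gigyf1 (0.997), Adgra2 (0.996), Cdk10 (0.996) and Fam13b (0.995). An r above 0.9 was reached by 419 genes (6.61%) for Neat1, 295 (4.65%) for Malat1 and 302 (4.76%) for Meg3, and the points share library and depth. Rpl7a had 469, 672.9 and 616.1 CPM in wild type and 756.2 and 878 CPM in knockout, a smaller range than that of Neat1. Cetn3 was nearly flat, from 25.6 CPM in wild type 3 to 27.7 CPM in knockout 2. A high r therefore does not mean a difference of like size.

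**Figure D4:**
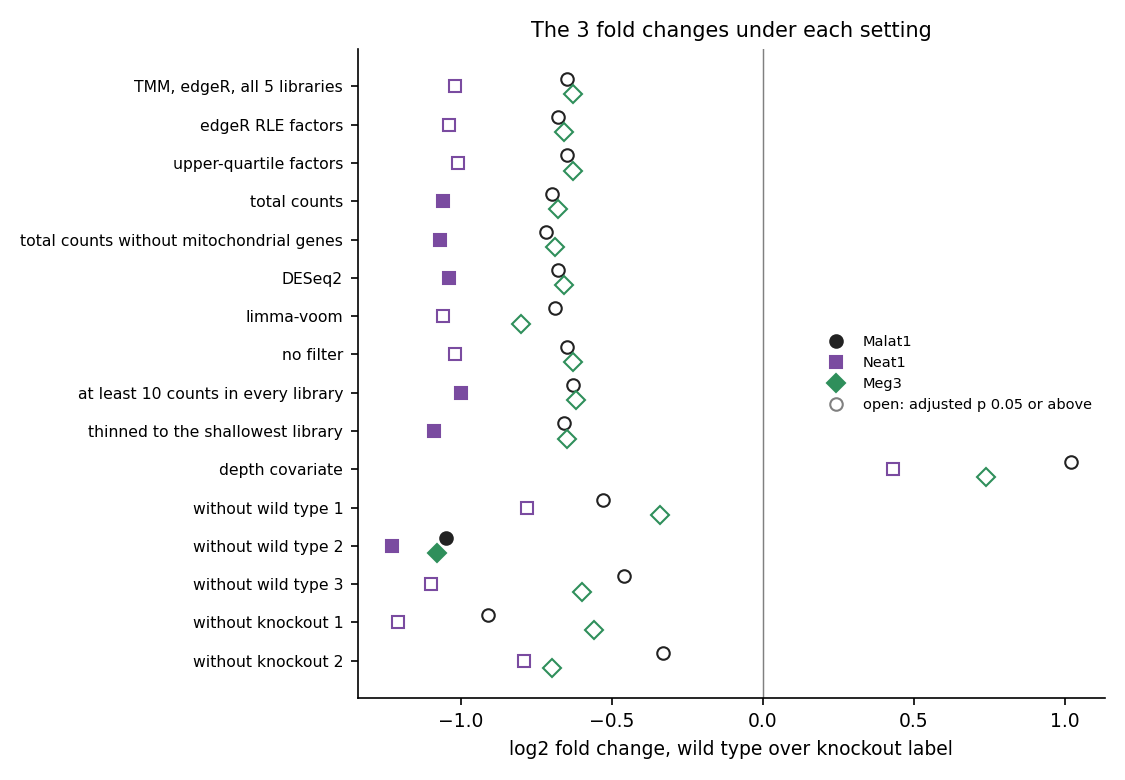
Log2 fold changes of wild type over knockout for Malat1, Neat1 and Meg3 under each processing setting plotted; filled marks have an adjusted p under 0.05. The values lie below 0 in each setting but the one with depth as a covariate, and all 3 marks are filled without wild type 2.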

How the data were processed

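The deposited table holds whole-number counts per gene from 5 libraries, with exon coordinates and lengths. The submitters' processing notes name mm10 and the tools STAR, Trim Galore, featureCounts (Subread) and edgeR; tool versions, strand setting and annotation release are not stated in the labels or the table. The third-highest CPM of a gene was never below 3.02, so the table was filtered before deposit; Malat1, Neat1 and Meg3 passed.

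The deposited counts were analysed with edgeR 4.0.16 under R 4.3.3 (TMM factors, filterByExpr, estimateDisp, glmQLFit, two-sided quasi-likelihood F-test, Benjamini-Hochberg over all 11194 genes, threshold 0.05). Standard errors come from the coefficient and its F statistic. Groups follow the titles. DESeq2 1.42.0 and limma-voom 3.58.1, other scalings, filters, thinning and left-out libraries were alternatives. Replicates differed by more than sampling noise (chi-square per degree of freedom 17.7 to 258.5). The code was tested on simulated data. Lists were matched by symbol, Entrez identifier or coordinates.

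Malat1, Neat1, Meg3 and the lists were chosen with earlier results of these data known. Named genes are these 3, Stau1, genes within 100 kb, the 5 genes most similar in pattern, and per list the called members or, where fewer than 3 were called, the 3 of smallest p; some genes under this rule are not reported here. Promoter and microRNA sequences come from RefSeq GRCm38.p6.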

Additional observations from a re-analysis of the deposited data

How the results depend on the processing

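All values here are edgeR log2 fold changes of wild type over knockout unless another tool is named. Malat1, Neat1 and Meg3 stayed below 0 in each of 15 planned settings. With log2 depth as a covariate, added after seeing the data, they were 1.02, 0.43 and 0.74, and 0 genes were higher in wild type and 1 in knockout. Neat1 was called at -1.06 with total counts, -1.07 with total counts without mitochondrial genes, -1.04 in DESeq2, -1.0 with at least 10 counts in every library and -1.09 after thinning. The labels do not say whether the replicate numbers pair the samples. Correlations across genes of deviations from the group mean were 0.05 for number 1 and 0.04 for number 2. With 2 knockout libraries their deviations mirror each other, so these values cannot settle pairing. With the replicate number as a block Neat1 was at -1.16 and Meg3 at -0.78, both called, and 288 genes were higher in wild type and 324 in knockout; Malat1, at -0.49, was not called.

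With single libraries left out, Malat1 ran from -1.05 to -0.33, Neat1 from -1.23 to -0.78 and Meg3 from -1.08 to -0.34; the calls without wild type 2 were the only ones. Over all genes, 118 were higher in wild type and 112 in knockout; DESeq2 called 434 and 466 and limma-voom 8 and 14, and left-out libraries gave 11 to 176 and 23 to 172, the fewest without wild type 3 and the most without wild type 2; without wild type 1 there were 21 and 40, and without knockout 2 there were 64 and 82. Total counts gave 39.4% of calls to wild type and total counts without mitochondrial genes 35.7%, beside 51.3% with no filter, which equals the TMM result. No gene of the 6 lists was called in edgeR with TMM factors, and 33 of 192 list counts, up to 5 genes, moved from 0 under some setting. The group differences of the within-library ratios moved by less than the larger group SD of each ratio. That of Meg3 over Malat1, -0.06 with all libraries, did not keep its sign. It was 0.23 without wild type 1, 0.30 without knockout 1 and -0.42 without knockout 2. The differences of the other ratios stayed above 0. Low counts set no limit on detecting the 3 RNAs: in knockout 2 a total of 3 reads equals 0.971 CPM. Depth and genotype still cannot be told apart.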
